A study of Mus musculus with 11 samples.

Results

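The data described here are the 4 libraries of Ofd1-mutant clones among the 11 RNA-seq libraries of a series on drug-resistant SMB21 cells, chosen by their column names in the table of read counts. They come from 3 clones. Clone R14 was measured in 2 libraries labelled as biological replicates, and clones R16 and R25 in 1 library each. SMB21 is a medulloblastoma line from Ptch1tm1Mps/J mice and is grown as neurospheres, so every group carries the Ptch1 mutation. The clones came out of a transposon screen for drug resistance, and other parental cells of the series were treated with sonidegib, which blocks the Hedgehog receptor component Smoothened. Per the labels, each clone is an Ofd1 mutant in the same cell line, with no insertion site given, and the labels do not say whether clones were kept in drug. Untreated parental SMB21 cells (n = 3) are used as a reference level. Each clone is a single isolate of its kind, so a difference between clones is a difference between isolates, and nothing in the labels says whether the R14 libraries came from separate cultures. The p-values below then measure only the spread between those libraries, which may be technical.

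OFD1 is a protein of the centriole, of the base of the primary cilium and of centriolar satellites, the granules around the centrosome. The primary cilium is the antenna-like organelle in which vertebrate cells process the Hedgehog signal: PTCH1 holds Smoothened in check there, and GLI transcription factors pass through the cilium before they act on targets such as Gli1, Ptch1 and Hhip. SUFU binds and restrains GLI proteins downstream of Smoothened. Medulloblastoma of this kind arises from granule cell progenitors of the cerebellum, which divide in response to Hedgehog.

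The 4 libraries held 30853655 to 37457641 counts, and a count of 3, used below as the limit of a near-absent transcript, was worth 0.0801 to 0.0972 CPM (counts scaled to a common library size). In all 4 libraries the granule progenitor markers Atoh1 (440 to 568 CPM), Barhl1 (213 to 489 CPM) and Zic1 (524 to 690 CPM) were abundant. The 15 microglia and macrophage markers summed to 1.40 to 2.42 CPM. Of 15 fibroblast and pericyte markers 3 had a mean of at least 5 CPM, among them Pdgfra at 248, 412, 257 and 222 CPM, while Col3a1 was at 0 in each library. Of 13 endothelial markers 2 did, among them Cdh5 at 3.19, 12.5, 3.57 and 1.92 CPM, while Cldn5 was at 0 in each. In bulk RNA, fewer cells of a type and less RNA per cell cannot be told apart. Levels below are CPM on a common TMM scale and, where 4 values are listed, stand in the order R14 replicate 1, R14 replicate 2, R16, R25; 3 parental values stand in the order of the replicates.

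The targeted transcript was present in each clone. Ofd1 stood at 13.7, 23.5, 9.33 and 13.8 CPM, and in parental cells at 43.5, 35.8 and 37.4 CPM. All 4 clone libraries were under the 3 parental ones, and the R14 libraries lay further apart than either R14 replicate 1 and R25 or R14 replicate 1 and R16. The level of a transcript does not show where it is interrupted, so these values check the labels only in part.

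The first question was how far libraries of different clones lay from each other compared with libraries of 1 clone. Over the 10925 genes whose mean in these libraries reached 5 CPM, the SD across genes of the difference in log2(CPM + 0.5) was 0.336 between the R14 libraries. R16 differed from R14 replicate 1 with an SD of 0.452 but from R14 replicate 2 with an SD of 0.363, so R14 replicate 2 lay about as close to R16 as to its own clone mate. R25 stood off from each of the other libraries, with an SD of 0.530 from R14 replicate 1, 0.558 from R14 replicate 2 and 0.514 from R16. Genes past 2-fold numbered 188 between the R14 libraries, or 1.72% of those measured. They numbered 414 and 206 between R16 and R14 replicates 1 and 2, 546 and 600 between R25 and the same libraries, and 501 between R25 and R16. Parental libraries gave a similar range: parental replicates 1 and 2 differed with an SD of 0.219, and replicate 3 differed from them with SDs of 0.528 and 0.533. Parental replicate 3 therefore stood apart, and parental levels are given singly. The Sufu-mutant clones R13 and R1, the other clone pair of the series, differed with an SD of 0.603. The plot of spread by pair of libraries shows these values.

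**Figure D1:**
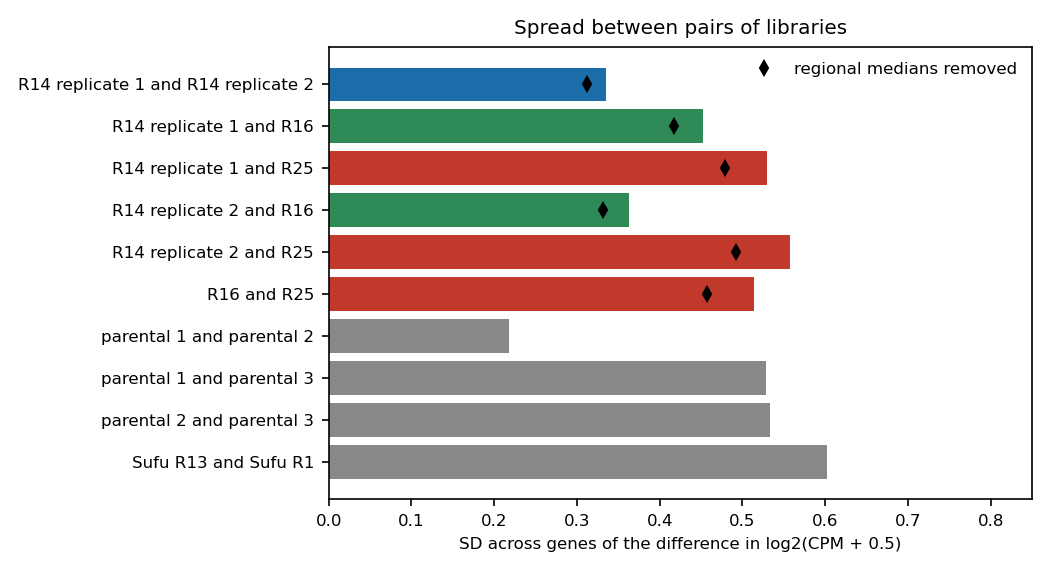
Spread between pairs of libraries. Bars give the SD across genes of the difference in log2(CPM + 0.5) (blue, the R14 pair; green, R16 with R14; red, pairs with R25; grey, parental and Sufu pairs) and diamonds the SD after the median of 31 neighbouring genes was removed. The R14 pair has the shortest bar of the Ofd1 pairs, 0.336, and R14 replicate 2 with R16, at 0.363, is close to it.

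The formal test called no gene. With 1 residual degree of freedom, that of the R14 pair, the edgeR quasi-likelihood test found 0 of 14284 genes (0%) at an adjusted p under 0.05 for R16 against R14, 0 (0%) for R25 against R14 and 0 (0%) for R25 against R16. Unadjusted p-values under 0.05 numbered 1442, 2891 and 1923 in that order, and the lowest Benjamini-Hochberg adjusted p-values were 0.45, 0.0564 and 0.133. DESeq2, run as an alternative on the same libraries, called 152 genes (1.18%) in R16 against R14, of which 77 were higher (0.597%) and 75 lower (0.581%). It called 725 genes (5.39%) in R25 against R14, 345 higher (2.56%) and 380 lower (2.82%), and 362 (2.69%) in R25 against R16, 220 higher (1.64%) and 142 lower (1.06%). The limma-voom test called 0 in each of the 3 contrasts. A single R16 or R25 library is assumed in these tools to vary as an R14 library does. Because edgeR made no calls, the genes below were taken by size (a log2 fold change of 2 or more and a gap to the nearer R14 library wider than the R14 pair's own difference) and are a description. The comparisons of R16 and of R25 with R14 share the R14 libraries, so their values are set side by side and not counted as independent of each other.

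Counted plainly, 112 genes (1.03%) in R16 lay past 2-fold from both R14 libraries, 46 of them higher (0.421%) and 66 lower (0.604%). In R25 320 genes (2.93%) did, 155 higher (1.42%) and 165 lower (1.51%). By a looser rule, that of 1 pair of libraries, R14 replicate 2 lay past 2-fold from replicate 1 in 108 genes upward (0.989%) and 80 downward (0.732%). On that looser rule R16 was past 2-fold from R14 replicates 1 and 2 in 3.79% and 1.89% of genes. R25 was past it from the same libraries in 5.00% and 5.49%. R25 lay past 2-fold from R16, also 1 pair, in 501 genes (4.59%), 290 higher (2.65%) and 211 lower (1.93%). Which side had left the parental range differed from gene to gene. Of the 155 genes higher in R25, 57 had only the R14 libraries within 2-fold of the parental range, 17 had only R25 within it, 65 had both and 16 neither. Of the 165 lower in R25, 39 had only R14 within it, 28 only R25, 86 both and 12 neither. In R16 the 46 higher genes divided into 14 with only R14 within it, 9 with only R16, 18 with both and 5 with neither, and the 66 lower ones into 10, 24, 26 and 6.

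Clone R25 differed from R14 in single genes of varied function. Krt10, an intermediate filament protein of suprabasal epidermis, was at 24.4, 17.3, 16.3 and 247 CPM, so that R25 alone stood high, above the parental 23.2, 22.7 and 31.3 CPM as well. Its log2 fold change was 3.57 ± 0.24 (SE), with an adjusted p of 0.0775 by edgeR and 1.4e-35 by DESeq2. Serpinb8, a serine protease inhibitor, read 3.12, 2.77, 1.74 and 45.5 CPM against 1.19 to 1.51 CPM in parental cells, again with only R25 high. Ptpru, a receptor tyrosine phosphatase, read 2.19, 2.33, 5.01 and 32.5 CPM. Wipf1, which binds the actin regulator WASP, read 1.37, 0.746, 2.13 and 16.1 CPM. Csrp1, a LIM-domain protein of the actin cytoskeleton, differed in which clones were near the parental level: R14 and R16 held 3.19, 2.58 and 1.70 CPM, R25 held 53.1 CPM and parental cells 76.3, 60.5 and 34.0 CPM, so that R25 was the clone near the parental level. Ren1, the gene of the protease renin, read 5.03, 3.51, 2.49 and 96.9 CPM, and its parental levels were split, at 50.5, 79.8 and 7.15 CPM. Ren2 is a near-identical copy with nearly equal values (96.3 CPM in R25), and the counting may not separate the pair. The glutathione transferase Gsta4 stood at 1.09, 1.43, 0.0982 and 18.3 CPM, and the R16 value rested on 3 counts. Bex4 was at 2.53, 0.0622, 0.36 and 30.0 CPM, and its R14 libraries differed enough that neither edgeR (adjusted p = 0.196) nor DESeq2 (adjusted p = 0.438) called it.

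On the lower side, R25 nearly lacked transcripts that the other clones held. Mndal, an interferon-inducible gene of the p200 family, was at 33.8, 15.5, 13.5 and 0.184 CPM, and parental cells held 18.7 to 30.7 CPM. Its log2 fold change against R14 was -7.04 ± 0.85, with an adjusted p of 0.116 by edgeR and 1.93e-19 by DESeq2. Syce2, a protein of the synaptonemal complex in meiosis, read 28.6, 31.2, 16.4 and 0.526 CPM. Atp2b3, a calcium pump of the plasma membrane, read 12.2, 7.77, 9.04 and 0.237 CPM, and the tropomyosin Tpm2 read 7.96, 8.74, 6.94 and 0.237 CPM. For these 4 genes R25 lay under 1 CPM and each other clone library above 6 CPM, although those libraries themselves differed by about 2-fold for Mndal and Syce2. The transcriptional repressor Bcl6b (21.2, 17.2, 10.2 and 0.684 CPM) and the diacylglycerol kinase Dgkg (9.18, 11.3, 5.76 and 0.605 CPM) had R16 between R14 and R25. Against R16 alone, the same side was led by Mndal and by Dock10, an exchange factor for small GTPases, at 5.56, 7.06, 20.3 and 0.395 CPM. Apod, which codes for a lipid-binding apolipoprotein, read 6.84, 18.6, 16.2 and 0.868 CPM and Ly6h read 23.4, 29.5, 10.3 and 2.24 CPM. Outside the naming rule, and picked after its values were seen, 1810041L15Rik was at 178, 149, 61.4 and 4.63 CPM, with 14.2 to 29.8 CPM in parental cells.

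Clone R16 differed from R14 in fewer genes and by smaller steps. Slc6a9, a glycine transporter, was at 20.9, 29.3, 106 and 20.9 CPM, with R16 alone high (log2 fold change 2.08 ± 0.24, adjusted p = 0.45 by edgeR and 1.64e-08 by DESeq2). Chd5, a chromatin remodeller of neurons, was at 4.34, 6.59, 26.8 and 9.02 CPM. Sulf2, which trims sulfate from heparan sulfate outside the cell, was at 4.93, 3.58, 19.9 and 30.4 CPM, against 20.8 to 27.9 CPM in parental cells, so there the R14 libraries were the ones apart. The spalt-type zinc finger gene Sall3 read 1.31, 2.08, 18.0 and 6.66 CPM against 15.1 to 30.4 CPM, so that R16 alone was within the parental range. The interferon-inducible GTPase Gbp9 read 4.43, 3.45, 17 and 15.1 CPM, the channel subunit Abcc9 read 2.03, 2.95, 10.1 and 11.2 CPM, and Pgm2l1 read 5.22, 2.08, 14.9 and 10.9 CPM, with R16 and R25 on the same side of R14 in each. Glipr2 read 1.53, 5.53, 19.2 and 1.47 CPM.

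Among the genes lower in R16 were genes of neurons and synapses. Gng3, a G protein subunit of neurons, was at 42.2, 39.5, 9.40 and 30.3 CPM (log2 fold change -2.12 ± 0.18, adjusted p = 0.45 by edgeR and 1.64e-08 by DESeq2). Faim2, which blocks death signalling through Fas in neurons, was at 16.2, 10.7, 1.83 and 16.1 CPM. The neuronal peptidase gene Ecel1 was at 24.6, 23.2, 3.86 and 18.3 CPM and the kinase gene Dclk3 at 18.6, 15.6, 2.98 and 20.8 CPM. In these 4 genes R16 alone was low and R25 stayed near R14. Another set was low in R16 and lower or as low in R25: Rph3a, a synaptic vesicle protein, at 72.5, 32.7, 10.1 and 5.00 CPM, the kinase Syk at 11.5, 11, 2.16 and 0.447 CPM, Xkr7 at 32.5, 22, 3.99 and 1.29 CPM, and Slc17a7, a vesicular glutamate transporter, at 7.96, 17.5, 2.75 and 3.60 CPM. Parental cells held 0.751 to 1.38 CPM of Syk and 1.22 to 1.93 CPM of Slc17a7, so for these the R14 libraries were the high ones. Igfbpl1 read 25.1, 57.7, 7.43 and 2.50 CPM and its parental levels were split, with 80.1 and 64.4 CPM in replicates 1 and 2 and 4.13 CPM in replicate 3. The calcium buffer Pvalb (15.2, 13.1, 2.42 and 3.39 CPM) was split in the same way in parental cells, with 52.8, 48.2 and 5.73 CPM, and so was the growth cone protein gene Dpysl3, which was higher in R16 (2.94, 2.70, 12.9 and 7.39 CPM) and at 36.3, 30.7 and 5.70 CPM in parental cells. The slow troponin gene Tnnt1 completed the lower group at 7.96, 15.1, 1.93 and 9.08 CPM.

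**Figure D2:**
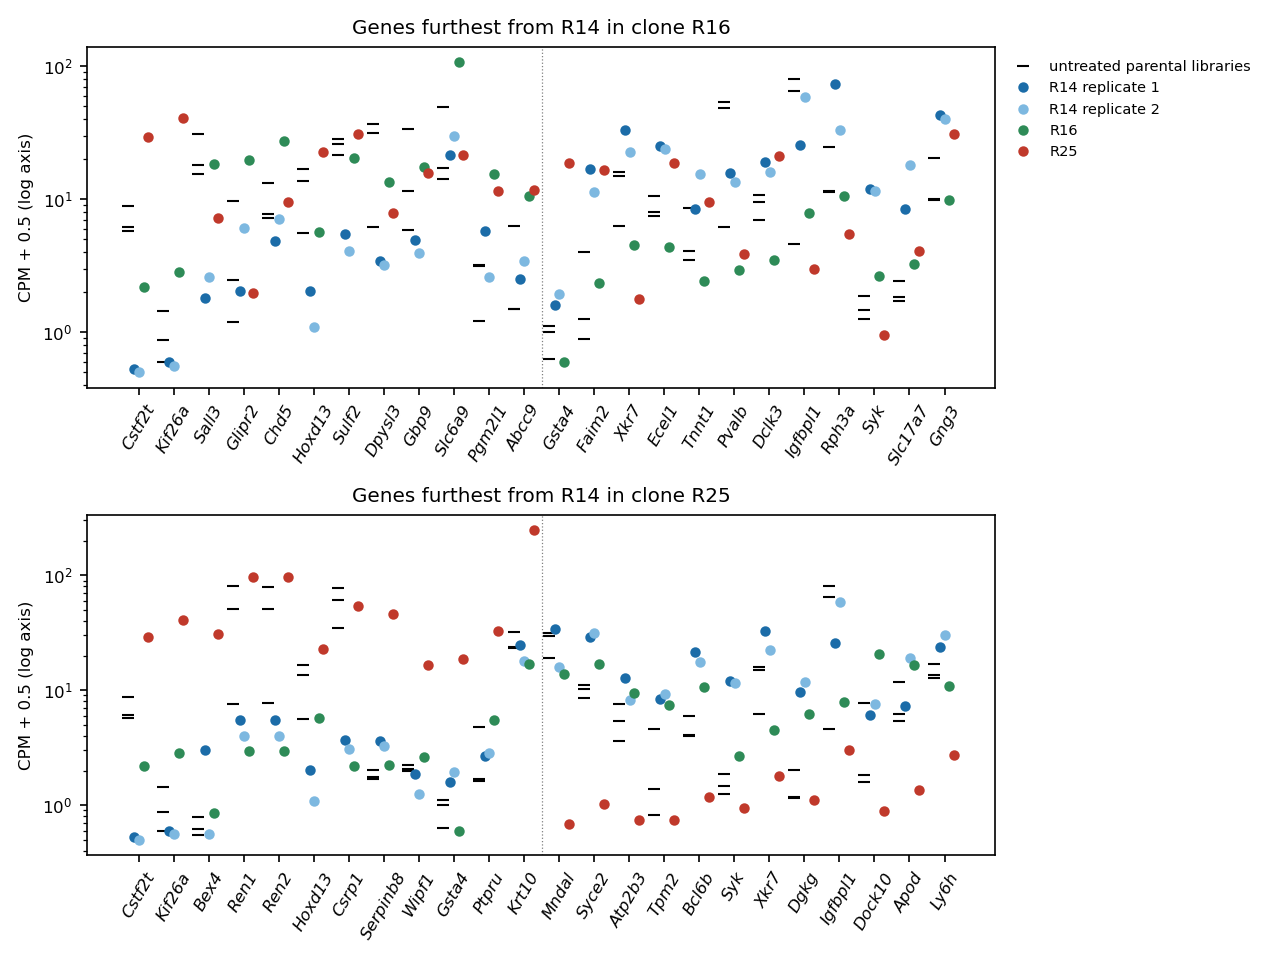
Genes furthest from R14 in clone R16 (top) and clone R25 (bottom), as CPM + 0.5 on a log axis, with genes higher in the clone left of the dotted line. Points are single libraries and black dashes the 3 untreated parental libraries. In the lower panel the red R25 points stand clear of the other 3 clone libraries for Krt10 (247 CPM) and for Mndal (0.184 CPM).

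Some transcripts separated the clones as present or absent. A gene was called near absent in a clone if each of its libraries held at most 3 counts while another clone library held at least 5 CPM. R14 had 11 such genes, R16 had 6 and R25 had 1, where the table held 22619 genes. For R14 they were Cstf2t, Kif26a, Fam111a, Cdk18, Kctd4, Meis2, Hoxa5, Hoxa7, Hoxa10, Mira and 2210016F16Rik, and in all 11 the library of at least 5 CPM was R25. For the 6 genes of R16 that library was R25 as well, so both counts depend on the single R25 library. Cdk18, Hoxa10, Kctd4 and Meis2 were counted for both R14 and R16. Cstf2t, a subunit variant of the factor that helps cut pre-mRNA at its 3' end, had 1, 0, 52 and 1094 counts, and parental cells held 5.65, 5.28 and 8.31 CPM. Kif26a, an atypical kinesin, had 3, 2, 72 and 1531 counts, and parental cells held 0.0963 to 0.95 CPM. Fam111a, a protease gene of chromatin and DNA replication, had 1, 1, 53 and 628 counts with at most 0.0642 CPM in parental cells. Low counts in both R14 libraries are required by the rule. For Cstf2t, Kif26a and Fam111a, R16 held low levels of 1.70, 2.36 and 1.74 CPM, and R25 held 28.8, 40.3 and 16.5 CPM. Cdk18 (3, 1, 0 and 331 counts), Kctd4 (0, 1, 1 and 391 counts) and the homeobox gene Meis2 (1, 1, 2 and 198 counts) were near absent in R14 and R16 alike, and parental levels were at most 1.07, 0.0594 and 0.225 CPM. The 1 gene near absent in R25 was Hrasls, a phospholipase-like gene, with 262, 242, 114 and 1 counts. With so few counts on one side no fold change is given.

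The stretches before the start sites of Cstf2t and Kif26a are shown because they had the most counts in R25 among the near-absent genes of R14. They are the 250 bases upstream of the RefSeq start (GRCm38.p6, plus strand for both), at chr19:31082591-31082840 for Cstf2t and chr12:112145958-112146207 for Kif26a, and capitals mark each CG.
Cstf2t: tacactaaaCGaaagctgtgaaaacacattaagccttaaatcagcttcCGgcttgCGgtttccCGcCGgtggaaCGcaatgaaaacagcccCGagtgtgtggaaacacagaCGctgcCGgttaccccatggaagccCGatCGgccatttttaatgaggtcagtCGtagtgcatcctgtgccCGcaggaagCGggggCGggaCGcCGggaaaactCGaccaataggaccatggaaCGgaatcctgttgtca
Kif26a: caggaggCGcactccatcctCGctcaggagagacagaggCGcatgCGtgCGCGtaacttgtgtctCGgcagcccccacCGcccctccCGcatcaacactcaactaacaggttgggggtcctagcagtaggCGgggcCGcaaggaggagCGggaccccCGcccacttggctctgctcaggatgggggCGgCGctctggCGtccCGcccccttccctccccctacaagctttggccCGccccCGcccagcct
Each holds 19 CG dinucleotides, read on the printed strand, where the median over 32851 RefSeq mouse promoters of this length is 6 and 37.8% hold 10 or more. Hoxa5 holds 28 and 2210016F16Rik 21, whereas Cdk18 holds 6 and Hoxa7 and Meis2 hold 7. The counts of CG describe the sequence and are not tied here to the difference between clones.

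Hox genes, which set position along the body axis and are largely silent in the part of the hindbrain that forms the cerebellum, were higher in R25. Of 39 Hox genes in the table, 20 reached 1 CPM in R25, compared with 6 and 2 in the R14 libraries, 4 in R16 and 4 or 5 in the parental libraries. The 11 Hoxa genes together gave 0.0937, 0, 1.21 and 30.4 CPM and the 10 Hoxb genes 0.25, 0.218, 2.78 and 23.9 CPM, with parental sums of at most 0.208 and 0.51 CPM. Among these clone and parental libraries R25 was far the highest for both clusters, and R16 was second. The Hoxd genes differed in another way: their 9 members gave 5.59, 2.39, 12.7 and 47.4 CPM, and parental cells gave 25.8, 31.6 and 11.1 CPM. Hoxd13 was the largest of them at 1.53, 0.591, 5.21 and 22.2 CPM against 13.1, 16.2 and 5.11 CPM, and Hoxd9 followed at 0.0937, 0.435, 2.91 and 12.6 CPM. The 9 Hoxc genes showed no clone order, with 23.2, 9.83, 9.89 and 20.5 CPM. By DESeq2, 11 of the 28 Hox genes tested were higher in R25 than in R14 (2.56% of all genes were) and 2, Hoxd9 and Hoxd13, were higher in R16 (0.597% of all genes), and DESeq2 called none lower. With edgeR none was called, the adjusted p of Hoxd13 in R25 being 0.116.

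The Hedgehog pathway differed between clones in single genes. The 17 Hedgehog targets tested had a median log2 fold change of 0.08 in R16 and 0.19 in R25, where all genes stood at -0.01 in each, and the targets stood at -0.02 between the R14 libraries. Gli1, a target and activator of the pathway, was at 144, 126, 188 and 70.8 CPM, so R16 was above and R25 below both R14 libraries, with every clone under the parental 222 to 244 CPM. R25 was lower than R14 by edgeR with an unadjusted p of 0.00309 and an adjusted p of 0.124 (DESeq2 adjusted p = 0.00175), at a log2 fold change of -0.93 ± 0.15. Ptch1, the receptor that restrains Smoothened, did not follow, at 65.9, 93.6, 82.1 and 109 CPM. Hhip, which binds Hedgehog ligand, spanned 64.5, 133, 222 and 289 CPM, and its R14 libraries alone differed by 1.04 on the log2 scale. The cyclins of the G1 phase went opposite ways in R25: Ccnd2 stood at 1302, 1072, 1254 and 474 CPM and Ccnd1 at 747, 650, 556 and 1439 CPM. R25 was outside the other 3 clone libraries for each, at log2 fold changes against R14 of -1.32 for Ccnd2 and 1.04 for Ccnd1. DESeq2 called each of these cyclin genes and edgeR called neither. Sfrp1, a secreted Wnt antagonist in the same list, set R16 apart instead, at 133, 131, 303 and 132 CPM (parental 311 to 575 CPM). Sox2, a stem cell factor, read 0.75, 3.70, 6.61 and 3.16 CPM and Sufu read 12.1, 12.5, 15.8 and 19.4 CPM, both under parental cells (23.7 to 34.8 and 28.0 to 30.0 CPM).

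Of 19 genes of Hedgehog machinery tested, DESeq2 called 3 in R25, where it called 5.39% of all genes, and none in R16, where it called 1.18%. Gli2, the main GLI activator, was at 257, 257, 313 and 611 CPM, the ubiquitin ligase Mgrn1, which lowers Smoothened, at 55.7, 52.9, 46.5 and 20.9 CPM, and Prkaca, a catalytic subunit of protein kinase A, at 168, 162, 141 and 105 CPM. All 3 lay in chromosome stretches that were shifted as a block in R25, described below. For the organelle that OFD1 serves, the 54 primary cilium genes tested had medians of -0.02 in R16 and 0.08 in R25, and the 41 centriole and satellite genes 0.15 and 0.22. DESeq2 called 1 gene of each in R25, no larger a share than the 5.39% of all genes. These were the ciliary receptor gene Sstr3, at 181, 105, 75.6 and 35.4 CPM, and the satellite scaffold gene Pcm1, at 230, 236, 186 and 134 CPM. Pcm1 also lay in a stretch shifted as a block in R25, and Sstr3 did not. Parental cells held 78.2 to 85.2 CPM of Sstr3.

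Whole chromosomes and long stretches of neighbouring genes were shifted between clones. Gene order was taken from another mouse build than the one used for alignment, so only chromosomes and neighbours are named. The median log2 difference of R16 from the R14 mean was 0.45 on chromosome 4, where 693 genes were measured, and 0.22 on chromosome 17, against -0.0043 over all genes. On chromosome 4 R16 was above both R14 libraries for 87.3% of genes, where 36.8% of all genes were. R25 was at -0.57 on chromosome 8, where all genes stood at -0.03, with 88.1% of 586 genes under both R14 libraries against 43.6% of all genes. R25 was also at 0.27 on chromosomes 1 and 4 and at -0.31 on chromosome 17. The R14 libraries themselves differed on chromosome 17, by 0.39 with 92.3% of 549 genes higher in replicate 2, so the chromosome 17 values depend on which R14 library is used: R16 was at 0.42 against replicate 1 and 0.03 against replicate 2, and R25 at -0.09 and -0.50. On chromosome 4 the same choice moved R16 between 0.43 and 0.46, and on chromosome 8 it moved R25 between -0.61 and -0.55.

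**Figure D3:**
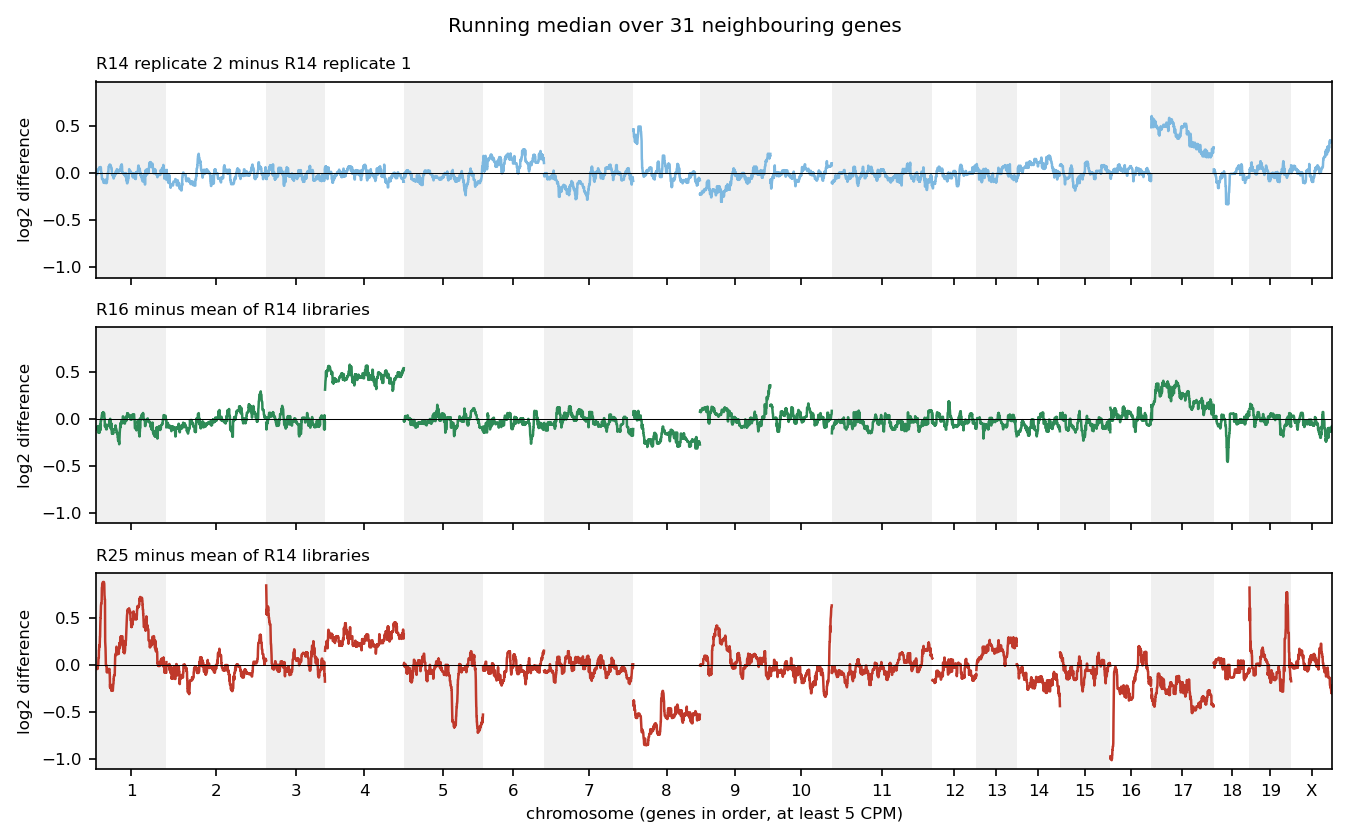
Running median of the log2 difference over 31 neighbouring genes along chromosomes 1 to X, for the R14 pair (top), R16 against R14 (middle) and R25 against R14 (bottom). Shaded bands separate chromosomes. R16 is raised along chromosome 4 and R25 is lowered along chromosome 8, while the R14 pair differs on chromosome 17.

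Runs were then marked where the median over 31 neighbouring genes stayed past 0.4 in either direction for at least 15 genes, a rule set after the data were seen. Because the window needs 15 genes on each side, a run can begin no nearer to a chromosome end. Such runs held 303 genes between the R14 libraries (2.77%), 510 in R16 (4.67%) and 996 in R25 (9.12%). The runs of R14 lay on chromosome 17 and in 1 stretch of chromosome 8, Tfdp1 to Kat6a, where 30 of 30 genes were higher in replicate 2 with a median of 0.50. There replicate 1 stood at -0.56 against the parental mean and replicate 2 at -0.05. All 6 runs of R16 lay on chromosome 4. R25 had 13 runs on 8 chromosomes. Of the 112 genes past 2-fold in R16, 11.6% lay in a run, where 4.67% of all genes did. Of the 320 in R25 20.9% did, where 9.12% of all genes did. Most thus lay elsewhere, but each share was above that of all genes. Of the genes named above by size, Ren1 and Csrp1 lay within the Cdh7 to Tsen15 run on chromosome 1 and Syce2 within the Anapc10 to Exoc8 run on chromosome 8. Serpinb8 lay directly before the Cdh7 to Tsen15 run. In R25 against R16 it was the first gene of a run, Serpinb8 to Rasal2. Glipr2, Chd5 and Slc6a9 lay within the chromosome 4 runs of R16, and so did Igfbpl1, which was lower in R16 against the direction of its run.

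Set against the parental libraries, the runs divided by which clone had moved. On chromosome 8, the 230 genes from Cers4 to Fam32a had medians of -0.10 and -0.04 in the R14 libraries, -0.25 in R16 and -0.78 in R25. The next 300 genes in a run, from Anapc10 to Exoc8, had medians of 0.52 and 0.49 in R14, 0.31 in R16 and -0.01 in R25, so there R14 and R16 stood off and R25 was at the parental level. The 15 genes from Nmral1 to Abat on chromosome 16 stood at 0.89 and 0.86 in R14 and 0.77 in R16 but at -0.13 in R25, and each of the 15 was lower in R25 than the R14 mean. The 46 genes from Fscn1 to Pomp on chromosome 5 gave 0.63, 0.51, 0.52 and -0.08, and the 19 from Ina to Smc3 on chromosome 19 gave -0.58, -0.59, -0.47 and 0.05, although 63.2% of those 19 were higher in R25 than the R14 mean. In those 3 stretches the R14 and R16 libraries lay together on one side and R25 was near the parental level. R25 alone was off in the 46 genes from Slc24a6 to Zcchc8 on chromosome 5 (0.05, -0.06, -0.11 and -0.59) and in the 43 from Fam135a to Aff3 on chromosome 1 (-0.12, -0.19, -0.08 and 0.64). The 105 genes from Cdh7 to Tsen15 gave -0.21, -0.18, -0.21 and 0.40, but the parental libraries themselves were split there at 0.23, 0.25 and -0.47. On chromosome 17 the parental medians were -0.09, -0.08 and 0.18, beside -0.07, 0.34, 0.39 and -0.16 in the clones. The cause of these shifts was not tested.

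**Figure D4:**
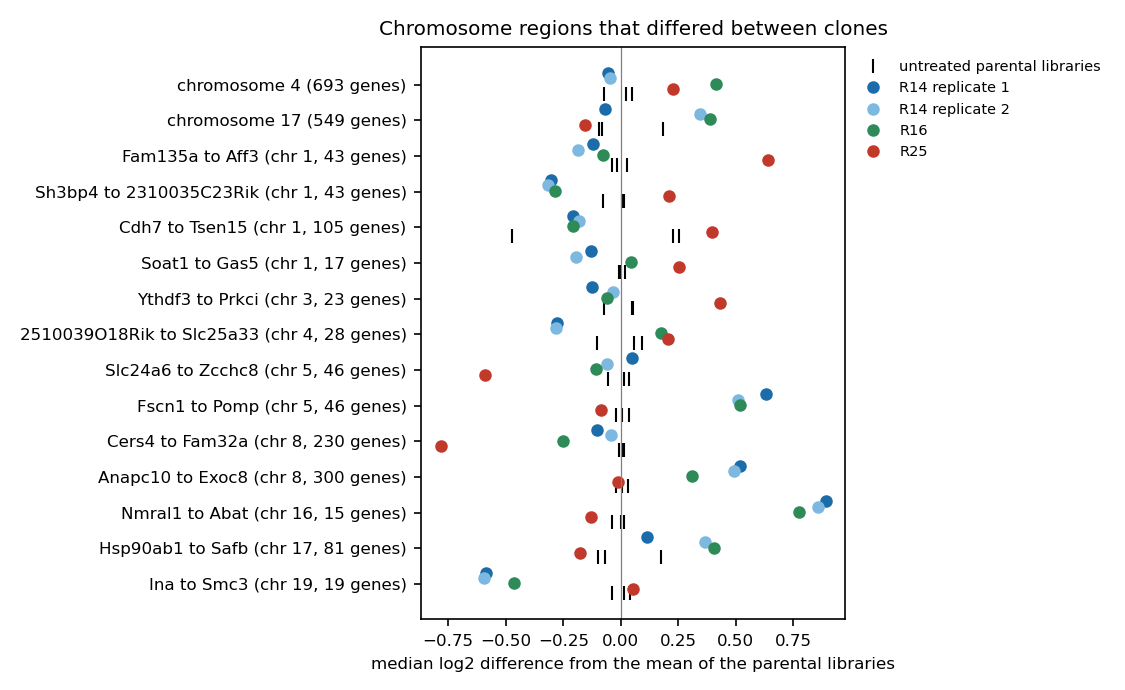
Median log2 difference from the mean of the parental libraries for chromosomes 4 and 17 and for each run of neighbouring genes that was shifted in R25 against R14. Coloured points are the 4 clone libraries and black ticks the 3 parental libraries. R14 and R16 sit together off the parental ticks for Nmral1 to Abat (0.77 to 0.89), and R25 sits apart for Cers4 to Fam32a (-0.78).

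Genes of the cytosolic ribosome had a lower list median in R25. The 78 ribosomal protein genes had a median of -0.31 in R25 and -0.07 in R16, against -0.01 for all genes, and summed to 28579, 31689, 29419 and 23891 CPM. R25 was the lowest of the 4 libraries for 66 of 78, where it was the lowest for 35.6% of all genes. The R14 libraries differed as well: replicate 2 was the highest of the 4 for 55 of 78, where it was for 23.7% of all genes. DESeq2 called 7 lower in R25 (2.82% of all genes were), and 5 of these, Rpl6, Rpl13 and Rpl21 among them, were the 5 members that lay in a run. Rpl6, a protein of the large subunit, read 468, 492, 395 and 282 CPM. The 73 members outside runs had a median of -0.29, and with an offset for transcript length the whole list also stood at -0.29. The Spearman correlation of level with transcript length over genes was 0.199, 0.170, 0.195 and 0.225 in the 4 libraries, the reverse of the order of the ribosomal sums, and its part in the result beyond that offset was not tested.

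Stress genes differed within clone R14 as well as between clones. The integrated stress response, in which the factors ATF4 and CHOP (Ddit3) raise genes of amino acid supply and tRNA charging, had 32 members measured, and they had a median log2 difference of 0.96 between the R14 libraries, 0.68 in R16 against R14 and -0.07 in R25. R14 replicate 2 was past 2-fold above replicate 1 for 16 of 32 members (0.989% of all genes were) and for none below. R16 was the highest of the 4 libraries for 29 of 32, where it was for 25.6% of all genes, and R14 replicate 1 was the lowest for 24, where it was for 21.9%. R14 replicate 2 and R16 were both above R14 replicate 1 and R25 for 26 of 32, against 19.2% of all genes. Chac1, which breaks down glutathione, stood at 3.44, 37.0, 77.1 and 18.7 CPM. Trib3, a pseudokinase that restrains ATF4, stood at 6.06, 45.3, 86.9 and 23.7 CPM, Sesn2, a leucine-sensing inhibitor of mTORC1, at 14.7, 56.0, 165 and 55.1 CPM, and Asns, which makes asparagine, at 112, 291, 370 and 197 CPM. In each the order was R14 replicate 1, then R25 or R14 replicate 2, then R16. The gap inside clone R14 was 3.25 for Chac1 and 2.80 for Trib3 on the log2 scale, larger than that between R16 and the R14 mean (2.68 and 2.33). R16 was past 2-fold from both R14 libraries for 5 members (0.421% of all genes), among them Atf3 at 7.65, 15.9, 40.2 and 12 CPM, with an adjusted p of 0.45 by edgeR and 0.00987 by DESeq2. Measured against replicate 1 or replicate 2 alone, the median of R16 was 1.14 or 0.36 and that of R25 was 0.42 or -0.42. Parental levels of these genes also varied, Atf5 for example at 63.7, 45.3 and 360 CPM.

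**Figure D5:**
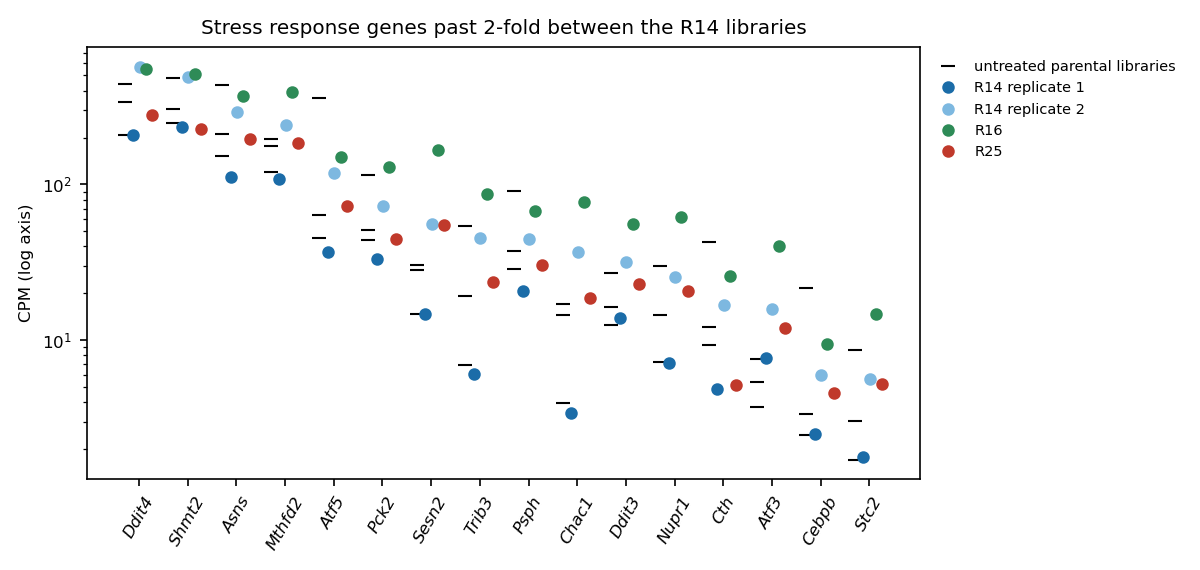
CPM on a log axis of the 16 integrated stress response genes past 2-fold between the R14 libraries. Points are single clone libraries and black dashes the parental libraries. For Chac1 the R14 points lie at 3.44 and 37.0 CPM and the R16 point at 77.1 CPM.

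Neuronal genes ran the other way within R14. The 40 neuronal differentiation genes tested had a median of -0.31 between R14 replicate 2 and replicate 1, -0.42 in R16 and -0.56 in R25. R14 replicate 1 was the highest of the 4 libraries for 19 of the 31 members at 5 CPM or more, where it was for 23.5% of all genes. Elavl4, an RNA-binding protein of neurons, was at 25.2, 0.808, 1.01 and 0.868 CPM, and the neurofilament genes Nefl and Nefm at 41.2, 6.68, 3.27 and 5.89 CPM and at 36.9, 8.05, 3.50 and 7.02 CPM. For these R14 replicate 1 alone was high and the other R14 library sat with R16 and R25. Other members did separate clones. Syn2, a synaptic vesicle protein, read 63.5, 56.6, 21.3 and 33.5 CPM, called in R16 and in R25 by DESeq2 and in neither by edgeR. Neurod2, a transcription factor of neuronal differentiation, read 42.9, 31.9, 19.8 and 14.1 CPM. DESeq2 called 1 member higher and 4 lower in R16 (0.597% and 0.581% of all genes) and 1 higher and 7 lower in R25 (2.56% and 2.82%). Without R14 replicate 1 the median of R25 was -0.20.

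The R14 libraries also differed in genes outside these lists. The largest differences were led, besides the stress genes Chac1 and Trib3 and the neuronal genes Elavl4 and Nefl, by Aqp6 (0.906 and 9.39 CPM), Dcpp3 (0.968 and 6.68 CPM), Rimbp2 (1.09 and 7.09 CPM) and Nxph4 (10.6 and 52.3 CPM), all higher in replicate 2. Dtx4 (22.1 and 1.87 CPM), Phactr3 (14.8 and 1.24 CPM) and the hindbrain homeobox gene En1 (4.18 and 0.0622 CPM) were higher in replicate 1. En1 stood at 0.426 CPM in R16 and at 18.6 CPM in R25, so the 2 libraries of R14 bracketed R16. Between R25 and R16, which both genes also separated, edgeR gave adjusted p-values of 0.337 for Aqp6 and 0.415 for En1.

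Cell cycle lists had small differences, also within R14. The 50 genes of G2 and mitosis had medians of 0.28 between the R14 libraries, 0.20 in R16 and 0.27 in R25, and R14 replicate 1 was the lowest library for 45 of them, where it was for 21.9% of all genes. The 45 S phase genes had medians of 0.21, 0.12 and -0.12. Where DESeq2 called 1.18% of all genes in R16 and 5.39% in R25, it called 1 G2 and mitosis gene in R16, 2 in R25 and 1 S phase gene, Mcm3, a subunit of the replicative helicase, in R25 (313, 352, 338 and 531 CPM).

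Some matrix, guidance and Wnt genes were higher in R25. The 61 matrix and adhesion genes tested had a median of 0.43 in R25 and 0.24 in R16. DESeq2 called 11 higher and 2 lower in R25 (2.56% and 2.82% of all genes) and 1 lower in R16. The R25 median was smaller among the 40 members at 5 CPM or more. There the 35 outside shifted chromosome runs stood at 0.22 and the 5 inside at -0.15. Of these 40 members DESeq2 called 12 in R25, and 3 of those lay in runs. Hspg2, the core of the proteoglycan perlecan, was at 11.8, 6.25, 17.6 and 34.6 CPM and Thbs2, a matricellular glycoprotein, at 13.4, 17.6, 12.1 and 43.0 CPM, while the brain proteoglycan gene Bcan was lower in R25, at 65.3, 152, 180 and 11.3 CPM. Semaphorins, plexins and neuropilins guide axons and migrating cells. Of 27 such genes, DESeq2 called 5 higher (2.56% of all genes) and none lower in R25, and none in R16. The list medians were 0.43 in R25 and 0.00 in R16. Of the 21 members at 5 CPM or more, the 19 outside runs had an R25 median of 0.30 and the 2 inside 0.05. DESeq2 called 4 of these 21 in R25, and 1 of those lay in a run. Nrp1 read 25.3, 28.9, 22.6 and 61.0 CPM and Sema7a 232, 179, 219 and 380 CPM, each with R25 above the other 3 libraries. The Wnt coreceptor gene Lrp5 (12.6, 17.8, 28.2 and 55.4 CPM) and Wnt9a (5.25, 3.51, 5.50 and 16.1 CPM) were higher in R25 and the receptor gene Fzd6 (40.3, 32.4, 21.6 and 11.8 CPM) was lower. In each group the call rested on DESeq2, and edgeR called none of these genes.

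Metabolic genes differed by member as well. Pfkp, a phosphofructokinase of glycolysis, stood at 43.1, 47.3, 11.7 and 9.05 CPM, with R14 high and R16 and R25 near the parental 4.66 to 7.89 CPM. DESeq2 called Pfkp in R16 and in R25, and edgeR called it in neither. The glucose transporter gene Slc2a1 stood at 35.5, 51.4, 69.5 and 114 CPM and the mitophagy receptor gene Bnip3 at 210, 360, 134 and 203 CPM. The 24 cholesterol synthesis genes tested had medians of -0.28 in R16 and -0.31 in R25 and 0.15 between the R14 libraries. DESeq2 called 2 lower in R25 (2.82% of all genes). These were Mvd at 112, 119, 68.5 and 52.4 CPM and Sc4mol at 278, 366, 233 and 147 CPM. Both lay in chromosome stretches that were shifted as a block in R25. The 21 members at 5 CPM or more outside such runs had a median of -0.31. Col18a1, a basement membrane collagen, was at 132, 104, 63.2 and 38.3 CPM, all far above the parental 2.85 to 4.80 CPM. The potassium channel gene Kcnj6 was the reverse, at 1.81, 2.05 and 3.34 CPM in R14 and R16 but 18.9 CPM in R25, which lay among the parental 14.7 to 19.9 CPM. The intermediate filament gene of astrocytes, Gfap, read 20, 17.2, 10.5 and 2.39 CPM, and Aqp4, another astrocyte marker, was at most 0.0526 CPM in every library. Gfap did not stand for its list, whose 9 members at 5 CPM or more had a median of 0.12 in R25. DESeq2 called 3 of them in R25 (5.39% of all genes), Gfap and Slc1a2 lower and Sparcl1 higher. Slc1a2 read 179, 228, 149 and 79.4 CPM and Sparcl1 read 116, 138, 186 and 291 CPM.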

How the data were processed

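The authors deposited raw read counts by gene symbol in 1 table for 11 mRNA libraries (stranded kit, 75-base single-end reads, 1 instrument run, per the labels' protocols). STAR, DESeq2 and build mm9 are named, per the submitters' processing notes; for the counting tool, its strand setting and the annotation, nothing is given in the sources used here. An entry that names no gene took 0.0131% to 0.0192% of a library and was left out, leaving 22619 genes. Members and gene lists were chosen with earlier results of these data known.

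The 4 Ofd1 libraries (30853655 to 37457641 counts) were fitted together with edgeR 4.0.16 in R 4.3.3 (TMM, filterByExpr, robust quasi-likelihood test, 1 coefficient per clone), which tested 14284 genes, two-sided, with Benjamini-Hochberg adjustment at 0.05. DESeq2 1.42.0 and limma-voom (limma 3.58.1) were alternatives. Each standard error is the fold change divided by the square root of F. CPM are counts over the TMM-scaled library total, and differences use log2(CPM + 0.5) where the mean is at least 5 CPM. The fit was also run on simulated counts, drawn with the same spread for all 4 libraries. Such counts cannot check whether an R16 or R25 library varies as an R14 library does.

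Genes were to be named among those with adjusted p under 0.05. With fewer than 5 such genes, the rule took up to 12 higher and 12 lower genes per contrast with R14 (6 for R25 against R16) with an absolute log2 fold change of at least 2, a mean of at least 5 CPM and a gap beyond the R14 pair's difference, and passed over clone-type symbols. For the R14 pair it took 6 in each direction. Ofd1, Sufu, Gli1, Ptch1, Hhip and Sox2 were named in any case, and members of lists shown as examples were chosen after their values were seen. Chromosome and gene order come from GENCODE M21 (GRCm38), by current symbol for 21187 genes and older symbol for 1123, and promoters from RefSeq. Reads are not independent molecules, so limits in counts cover counting error only. Some genes that the rule or the lists would name are not reported here.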

Additional observations from a re-analysis of the deposited data

How the results depend on the processing

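One residual degree of freedom and single libraries of R16 and R25 limit every call: no independent sample of those clones was measured. No paired analysis was possible because R16 and R25 are single libraries that share no second replicate number with R14. Counts of called genes depended on the setting. For R25 against R14, where edgeR called 0, DESeq2 called 725, library totals without TMM 292, upper-quartile factors 58, a filter at a mean of 5 CPM 11, the spread of all 11 libraries 5 and an offset for transcript length 14, and leaving out one library gave 0 to 40, the 40 being without R16. For R16 against R14 DESeq2 called 152 and every other setting 0, and for R25 against R16 DESeq2 called 362, library totals 47 and every other setting 0. The SD between libraries, in the order of the R14 pair, R16 with R14 replicates 1 and 2, R25 with the same and R25 with R16, was 0.283, 0.393, 0.308, 0.444, 0.472 and 0.437 at a mean of 20 CPM or more. For the 3 pairs with R25 it was 0.478, 0.503 and 0.464 with a pseudocount of 2 CPM, and 0.479, 0.492 and 0.457 with regional medians removed, an alternative added after seeing the data, as were, for chromosome medians, a filter at 20 CPM and library totals. The chromosome 4 median of R25 was 0.32 with the length trend removed. With an offset for transcript length the R25 medians were 0.059 for Hedgehog targets, -0.012 for primary cilium genes, 0.062 for centriole genes and 0.29 for matrix genes, and the R16 median of matrix genes was 0.14.

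Leaving out either R14 library moved list medians. The R16 medians ran from 0.017 to 0.10 for Hedgehog targets, -0.034 to 0.091 for primary cilium genes, 0.091 to 0.16 for centriole genes, -0.66 to -0.32 for neuronal genes and 0.16 to 0.22 for matrix genes. The R25 medians ran from 0.18 to 0.27 for Hedgehog targets, -0.032 to 0.084 for primary cilium genes, -0.58 to -0.20 for neuronal genes and 0.48 to 0.49 for matrix genes. The chromosome 17 median ran from 0.03 to 0.42 in R16 and from -0.50 to -0.09 in R25. The log2 fold change changed sign for Ofd1 in R25 (-0.43, and -0.77 to 0.011 with 1 R14 library left out), Ptch1 in R16 (0.04, and -0.19 without replicate 1) and Sox2 in R25 (0.50, and -0.23 to 2.07), and the cause was not tested. Over the other settings of named genes, 86 values passed 0.05 where the main edgeR test did not, and 247 kept their direction and side of the threshold.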
